A study of Sus scrofa with 6 samples.

Results

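The genes described here are 10 members of the Nodal and activin pathway: the ligands NODAL and GDF3, the secreted antagonists LEFTY2 and CER1, the receptors ACVR1B, ACVR2A and ACVR2B, the signal transducers SMAD2 and SMAD3, and the nuclear partner FOXH1. They were chosen by symbol, and 10 of 10 were found among the 20131 pig genes of the expression table. RNA sequencing compared 4 libraries of pgEpiSC, pig stem cells of the pre-gastrulation epiblast labelled as coming from embryos at embryonic day 10, with 2 libraries of pEF, porcine embryonic fibroblasts labelled as fetal material of embryonic day 30. No genotype, strain or treatment is named for either group, and the series calls its libraries biological replicates without saying whether they came from separate lines or embryos. The p-values below concern only these libraries. Those from limma, a linear fit, use a variance that pools each gene's own spread with a trend over all tested genes. They therefore do not measure the spread of a single gene alone.

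Nodal and the activins are secreted factors of the TGF-beta superfamily. They bring together type II receptors (ACVR2A, ACVR2B) and a type I receptor (ACVR1B, also called ALK4), which phosphorylates SMAD2 and SMAD3; these join SMAD4, and in the embryo FOXH1 guides the complex to DNA. Nodal further needs a co-receptor of the EGF-CFC family, whereas activin does not. The NODAL and LEFTY genes are themselves known targets of the pathway, so that signalling feeds forward through the ligand and back through the antagonist. In the mammalian epiblast the pathway is known for sustaining pluripotency before gastrulation and for patterning the embryo during it.

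Expression was given as TPM, a relative abundance that takes transcript length into account. Column totals ran from 93556 to 320206 TPM, so the libraries did not share a common scale, and the depth of a library cannot be read from TPM. Folds are therefore given on log2(TPM + 1), a scale that understates the change of low genes, for the values as deposited and again after median-ratio scaling, which divides each library by 1 factor. Over the 10424 tested genes the median fold was 0.48 before scaling and 0.02 after it. Of the epiblast markers, 7 of 8 were found and summed to between 421 and 1820 TPM in pgEpiSC against 0.118 and 0.66 TPM in pEF. The fibroblast markers, 7 of 8 found, summed to between 1.91 and 6.33 TPM in pgEpiSC against 469 and 1280 TPM in pEF. In bulk libraries, fewer cells of a type and less RNA per cell cannot be told apart.

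Of the 10 genes, 6 were called higher in pgEpiSC as deposited, 0 lower and 4 were not called (limma with Benjamini-Hochberg adjustment over all tested genes, adjusted p below 0.05). Among all tested genes 18.0% were called higher and 9.43% lower. At an unadjusted p below 0.05 the counts of the 10 were again 6 and 0. The median fold of the 10 was 2.49 as deposited. Passing the filter on low values took 1 TPM in at least 2 libraries. Of the 10 genes, 7 passed it through pgEpiSC alone, which favoured folds in that direction. All 6 called higher were among these 7, so nothing is read from their share against that of all tested genes. After scaling 6 were higher, 2 lower and 2 not called, with a median of 2.27, where 27.0% of all tested genes were called higher and 30.9% lower. The 6 were NODAL, GDF3, LEFTY2, CER1, ACVR2B and FOXH1, and the 2 were ACVR2A and SMAD3.

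**Figure D1:**
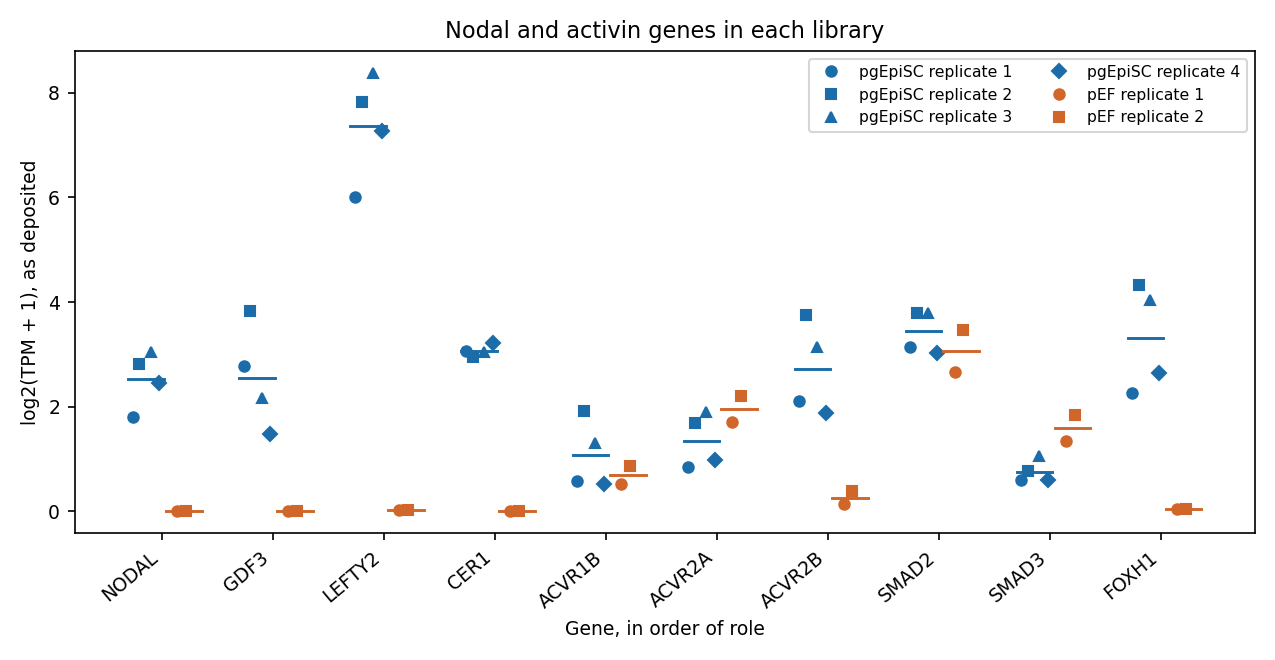
Level of each gene in each library on log2(TPM + 1), as deposited; blue points are the 4 pgEpiSC libraries, orange points the 2 pEF libraries, and short lines the group means. NODAL, GDF3, LEFTY2, CER1 and FOXH1 lie at or next to 0 in pEF, ACVR2B is low there, SMAD2, ACVR1B and ACVR2A overlap between the groups, and SMAD3 is higher in pEF.

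The ligands were found in every pgEpiSC library and were at or next to 0 in pEF. NODAL (ENSSSCG00000039399), the ligand that gives the pathway its name, was at 2.51, 6.03, 7.23 and 4.47 TPM in pgEpiSC replicates 1 to 4, and was listed at 0 and 0.00769 TPM in the pEF libraries. All 4 pgEpiSC libraries thus lay above both pEF libraries, as they did for 36.6% of all tested genes (34.5% after scaling), with a log2 fold of 2.52 ± 0.54 (SE, adjusted p = 0.000445) as deposited and 2.35 ± 0.24 (adjusted p = 9.81e-05) after scaling. GDF3 (ENSSSCG00000000669), a related ligand that signals through the same kind of receptors, was at 5.83, 13.2, 3.48 and 1.77 TPM in pgEpiSC and listed at 0 in both pEF libraries. Its fold was 2.56 ± 0.58 (adjusted p = 0.000792), and 2.38 ± 0.43 (adjusted p = 0.00186) after scaling. As deposited, the calls of NODAL and GDF3 were lost with a single pEF library left, at adjusted p = 0.077 and 0.123 in the absence of pEF replicate 1 and 0.0675 and 0.106 in that of replicate 2; the lone pEF library is then assumed to vary like the pgEpiSC group. After scaling they held whichever library was left out.

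The antagonists included the most abundant of the 10 genes in pgEpiSC. LEFTY2 (ENSSSCG00000032299), a secreted inhibitor that binds Nodal and its co-receptor, reached 63.0, 224.5, 332.5 and 153.8 TPM in the pgEpiSC libraries against 0.0155 and 0.0246 TPM in pEF. Within a library it ranked between 92 and 275 of the 10424 tested genes in pgEpiSC, and between 10036 and 10103 in pEF. The fold was 7.34 ± 0.53 (adjusted p = 1.79e-14) as deposited and 7.13 ± 0.40 (adjusted p = 4.77e-06) after scaling, and this call held in each alternative tried. How reads shared by LEFTY2 and a close copy were assigned is not given in the sources used here, and LEFTY1 was not found by symbol, so the value may hold reads of such a copy.

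CER1 (ENSSSCG00000039169), a secreted antagonist of Nodal, BMP and WNT ligands, was at 7.37, 6.70, 7.27 and 8.33 TPM in pgEpiSC and listed at 0 in both pEF libraries. Its fold was 3.07 ± 0.55 (adjusted p = 3.66e-05), and 2.92 ± 0.44 (adjusted p = 0.000742) after scaling. As deposited CER1 varied least among the 10 genes over the pgEpiSC libraries, with a highest value 1.24 times the lowest (coefficient of variation 9.11%). After scaling the values were 10.6, 3.12, 4.51 and 11.6, a spread of 3.71 times (57.0%), so that the even level held only on the deposited scale. FOXH1, in contrast, spread 5.01 times as deposited and 1.74 times after scaling. The spread of NODAL, GDF3, LEFTY2, ACVR1B, ACVR2A and ACVR2B narrowed as well. That of SMAD2 and SMAD3 went from 1.80 to 1.86 times and from 2.12 to 2.29 times.

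CER1 is also expressed by the hypoblast, the extraembryonic layer under the epiblast, and by anterior endoderm. Of 9 hypoblast and endoderm markers 8 were found, and 6 of these stayed under 1 TPM in every pgEpiSC library, GATA4, GATA6 and HNF4A among them. The 2 above it were FOXA2 (2.37, 3.30, 3.73 and 1.47 TPM) and APOA1 (5.36, 9.03, 8.88 and 4.59 TPM), which reached no more than 0.00687 and 0.874 TPM in pEF. The 8 summed to between 6.48 and 13.2 TPM in pgEpiSC and to 16.7 and 18.3 TPM in pEF, where PDGFRA made up most of the sum, and none was listed at 0 in all pgEpiSC libraries. The 7 trophectoderm markers summed to between 3.24 and 21.7 TPM in pgEpiSC and to 1.02 and 2.46 TPM in pEF, and the 7 primitive streak and mesoderm markers to between 3.79 and 9.59 against 0.575 and 0.762 TPM. The part of such cells in the levels of CER1 and the other genes was not tested.

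Ratios within a library do not depend on its scale and show how the secreted factors stood to each other in pgEpiSC. LEFTY2 exceeded NODAL by 25.1, 37.2, 46.0 and 34.4 times in replicates 1 to 4, a mean of 35.7 ± 8.61 (SD, n = 4). The ratio of GDF3 to NODAL was 2.32, 2.18, 0.481 and 0.397, so GDF3 was the higher of the 2 ligands in replicates 1 and 2 and the lower in replicates 3 and 4. CER1 to NODAL was 2.94, 1.11, 1.01 and 1.86. The highest ratio was 1.83 times the lowest for LEFTY2, 2.92 times for CER1 and 5.85 times for GDF3. The same libraries thus differed more in GDF3 than in LEFTY2, each set against NODAL. These ratios are given as a description and were not tested.

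**Figure D2:**
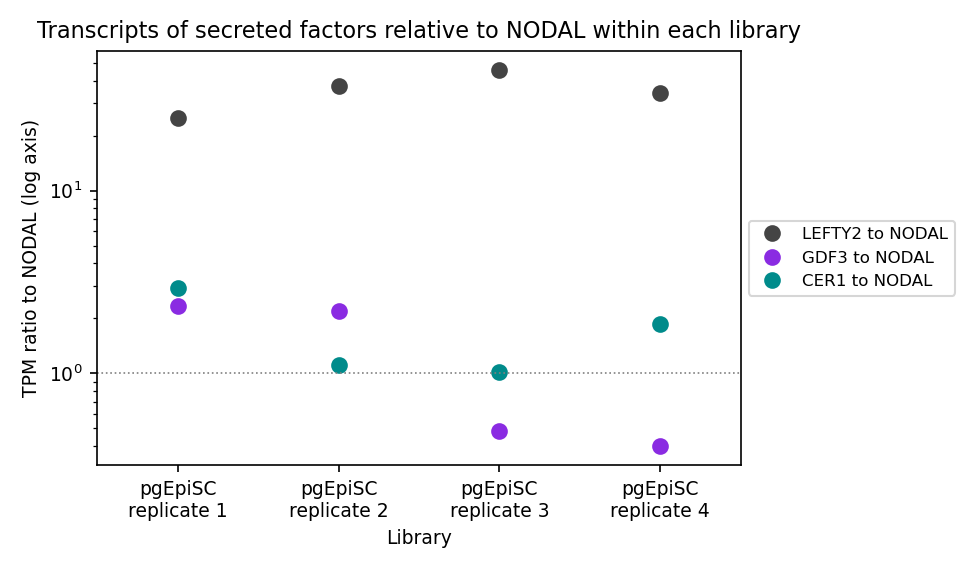
TPM of LEFTY2, GDF3 and CER1 divided by that of NODAL in the same library, on a log axis, for the 4 pgEpiSC libraries; the dotted line marks equal levels. LEFTY2 is 25.1 to 46.0 times NODAL, and GDF3 lies above NODAL in replicates 1 and 2 and below it in replicates 3 and 4.

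Among the receptors, the paralogs of the type II receptor stood in opposite proportion in the 2 cell kinds. ACVR2B (ENSSSCG00000011257) was at 3.34, 12.4, 7.79 and 2.67 TPM in pgEpiSC against 0.107 and 0.305 TPM in pEF, without overlap. Its fold was 2.45 ± 0.58 (adjusted p = 0.0013), and 2.19 ± 0.17 (adjusted p = 2.7e-05) after scaling. ACVR2A (ENSSSCG00000015669) was at 0.794, 2.22, 2.75 and 0.969 TPM in pgEpiSC against 2.27 and 3.61 TPM in pEF, and the groups overlapped. Its fold of -0.60 ± 0.53 was not called as deposited (adjusted p = 0.41, 95% interval -1.67 to 0.46), and after scaling, where the pEF libraries lay above all pgEpiSC libraries (35.9% of all tested genes), it was -1.10 ± 0.16 and called lower (adjusted p = 0.000537). Within a library ACVR2A ranked between 6768 and 8320 of the tested genes in pgEpiSC and between 4790 and 4865 in pEF. No scaling of a library can move these ranks. The tested genes include those that passed the filter through pgEpiSC alone, which lie under 1 TPM in pEF and take low ranks there. How many of all tested genes had ranks without overlap was not counted, so the ranks are a description only.

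The ratio of ACVR2A to ACVR2B was 0.238, 0.179, 0.353 and 0.363 in pgEpiSC and 21.2 and 11.8 in pEF. ACVR2B was thus the higher paralog in 4 of 4 pgEpiSC libraries, and ACVR2A in 2 of 2 pEF libraries. The mean log2 ratio was -1.88 ± 0.49 (SD, n = 4) against 3.99 ± 0.60 (SD, n = 2), a 58.3-fold difference (exact two-sided permutation test, p = 0.0667, the smallest that 15 splits allow; 0.0667 also after adjustment over the 2 ratios tested). This permutation test can therefore not reach the usual threshold with 4 and 2 libraries. ACVR2B was low in pEF, so the size of the difference is uncertain. The difference of the log2 ratio was -5.87, and -3.06 for ratios of TPM + 1. The call of ACVR2B as deposited was lost with a single pEF library left (folds of 2.33 and 2.57, adjusted p = 0.144 and 0.0895), and held after scaling whichever library was left out.

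The type I receptor gene was not called as deposited or after scaling. ACVR1B (ENSSSCG00000000233) was at 0.487, 2.78, 1.47 and 0.446 TPM in pgEpiSC against 0.446 and 0.824 TPM in pEF. The groups overlapped, and the fold was 0.38 ± 0.43 as deposited (adjusted p = 0.531, 95% interval -0.48 to 1.25) and 0.03 ± 0.16 after scaling (adjusted p = 0.896, 95% interval -0.35 to 0.40), and turned to -0.08 when each library was rescaled to the same sum.

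**Figure D3:**
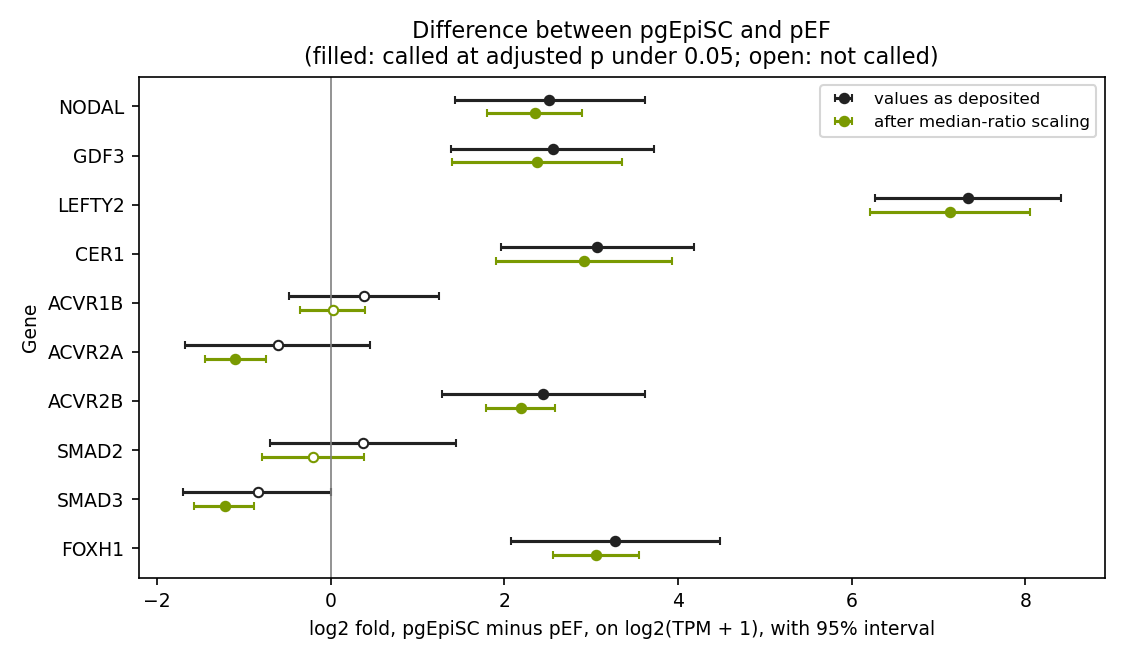
Log2 fold of each gene, pgEpiSC minus pEF, on log2(TPM + 1) with its 95% interval from limma, as deposited (black) and after median-ratio scaling (green); filled points were called. The same 6 genes are higher on both scales, whereas ACVR2A and SMAD3 are called lower only after scaling and ACVR1B and SMAD2 on neither.

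The receptor SMADs carry the signal to the nucleus, and their proportion did not overlap between the groups. SMAD2 (ENSSSCG00000004505) was at 7.76, 12.9, 12.8 and 7.17 TPM in pgEpiSC against 5.31 and 10.1 TPM in pEF, and the groups overlapped. Its fold was 0.37 ± 0.53 as deposited (adjusted p = 0.631, 95% interval -0.70 to 1.45) and -0.20 ± 0.25 after scaling (adjusted p = 0.52, 95% interval -0.79 to 0.39), so no direction can be given. SMAD3 (ENSSSCG00000004952) was at 0.521, 0.704, 1.08 and 0.51 TPM in pgEpiSC against 1.56 and 2.59 TPM in pEF. The 2 pEF libraries lay above all pgEpiSC libraries, as they did for 12.9% of all tested genes. The fold of SMAD3 was -0.84 ± 0.42 and not called as deposited (adjusted p = 0.135, 95% interval -1.70 to 0.01) and was -1.22 ± 0.15 and called lower after scaling (adjusted p = 0.000255). By rank within a library, SMAD3 was between 8787 and 9944 of the tested genes in pgEpiSC and at 5919 and 5920 in pEF. As for ACVR2A, these ranks are a description only.

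SMAD2 was the higher of the 2 paralogs in every library. The ratio of SMAD3 to SMAD2 was 0.0672, 0.0545, 0.0841 and 0.0712 in pgEpiSC and 0.293 and 0.257 in pEF. SMAD2 therefore exceeded SMAD3 by 11.9 to 18.3 times in pgEpiSC and by 3.41 and 3.89 times in pEF. The mean log2 ratio was -3.87 ± 0.26 (SD, n = 4) against -1.86 ± 0.13 (SD, n = 2), a 4.01-fold difference without overlap (exact two-sided permutation test, p = 0.0667, the smallest possible, and 0.0667 after adjustment over the 2 ratios). With any 1 library left out the difference of the log2 ratio stayed between -2.10 and -1.90.

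**Figure D4:**
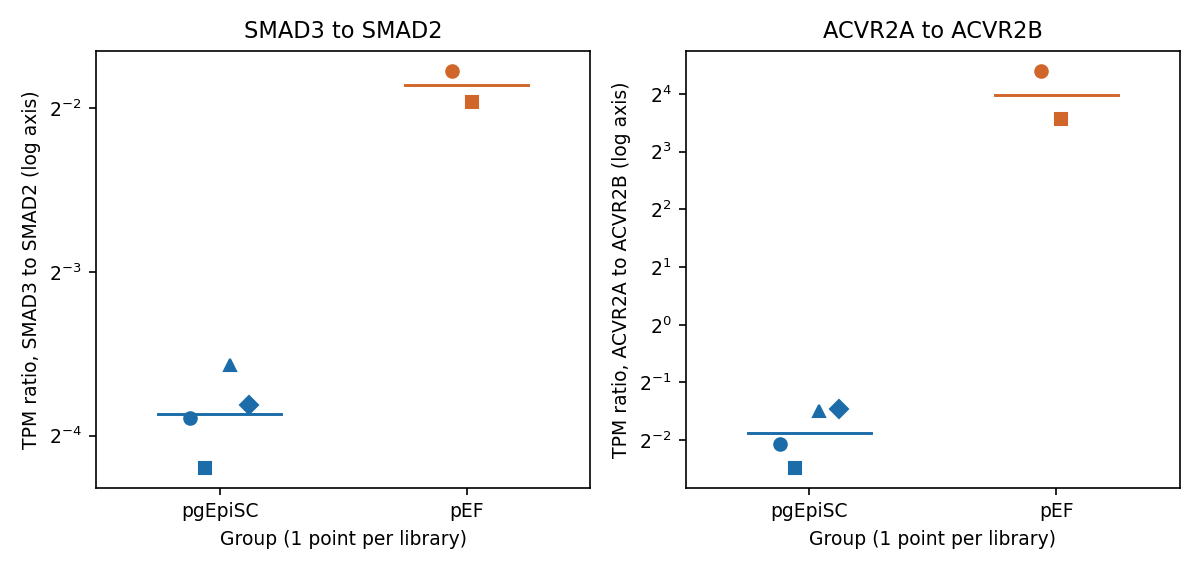
TPM ratio of SMAD3 to SMAD2 (left) and of ACVR2A to ACVR2B (right) in each library, on log axes; points are libraries and lines are the means of the log2 ratio. The pgEpiSC libraries lie below the pEF libraries in both panels, by 4.01-fold and 58.3-fold on average. ACVR2B was low in pEF, so the size of the second difference is uncertain.

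FOXH1 (ENSSSCG00000005902), the forkhead factor that recruits activated SMAD complexes to Nodal target genes, was at 3.82, 19.1, 15.3 and 5.26 TPM in pgEpiSC against 0.0264 and 0.0319 TPM in pEF. Replicates 2 and 3 were the highest, as they were for 7 of the other genes. These libraries also had the largest median-ratio factors, 2.15 and 1.61 against 0.697 and 0.722 for replicates 1 and 4. Nothing is therefore read from that count, and the share among all tested genes was not counted. After scaling the 4 values of FOXH1 were 5.48, 8.90, 9.51 and 7.29. The fold was 3.28 ± 0.60 (adjusted p = 4.79e-05) as deposited and 3.06 ± 0.21 (adjusted p = 1.3e-05) after scaling. LEFTY2, CER1 and FOXH1 were the 3 genes of the 10 called as deposited with either pEF library left out.

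Set in order of mean TPM in pgEpiSC, LEFTY2 led, followed by FOXH1, SMAD2, CER1, ACVR2B, GDF3, NODAL, ACVR2A, ACVR1B and SMAD3. LEFTY2 stood clear of FOXH1 in 4 of 4 libraries. From FOXH1 down to SMAD3 the ranges of neighbours in this order overlapped each time, though NODAL was above ACVR2A within each of the 4 libraries. In pEF the order was SMAD2, ACVR2A, SMAD3, ACVR1B, ACVR2B, FOXH1, LEFTY2 and NODAL, with GDF3 and CER1 listed at 0. There the ranges of ACVR2A and SMAD3 overlapped, and SMAD2 was above ACVR2A in both libraries.

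The other genes of the pathway formed a list of 38, of which 33 were found and 23 tested. As deposited 6 were called higher in pgEpiSC, 2 lower and 15 were not called, with a median fold of 0.10 against 0.48 for all tested genes. The 6 made up 26.1% of the 23, against 18.0% of all tested genes called higher, and the 2 called lower were near the 9.43% of all tested genes. Of the 23, 3 passed the filter through pgEpiSC alone, which favoured that direction, and all 3 were among the 6. Another 1, INHBA, passed it through pEF alone and was among the 2. Nothing is therefore read from these shares, as deposited or after scaling. After scaling 7 were higher (30.4%, near the 27.0% of all tested genes), 9 lower (30.9% of all tested genes were) and 7 not called, with a median of -0.51 against 0.02. The co-receptor genes TDGF1 and CFC1, the ligand GDF1 and the antagonists LEFTY1 and DAND5 were not found by symbol and were not analysed here.

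The gene of activin A was low in pgEpiSC, and the genes of its inhibitors differed in opposite directions. INHBA, which encodes the subunit of activin A, passed the filter on low values through pEF alone, which favoured folds toward pEF. It was at 0.168, 0.207, 0.117 and 0.306 TPM in pgEpiSC against 3.60 and 17.3 TPM in pEF, a limma fold of -2.94 ± 0.50 (adjusted p = 1.52e-05). The size of that fold rested on the pEF library used, at -3.94 without pEF replicate 1 and -1.94 without pEF replicate 2, both called. INHBB, the subunit of activin B, stayed under 1 TPM in every library and was not tested. FST, or follistatin, which binds and neutralises activins, was at 20.9, 49.5, 28.6 and 13.0 TPM in pgEpiSC against 0.614 and 1.47 TPM in pEF, a fold of 3.70 ± 0.55 (adjusted p = 1.49e-06). FSTL3, a follistatin-like inhibitor of activin, was lower, with 0.401, 1.26, 1.18 and 0.403 TPM against 4.15 and 13.8 TPM and a fold of -2.31 ± 0.54 (adjusted p = 0.00128). Without pEF replicate 2 the fold of FSTL3 was -1.55 and not called (adjusted p = 0.0986), and with no filter FSTL3 was not called either (0.0668). The directions of INHBA, FST and FSTL3 were the same after scaling, at -3.31, 3.30 and -2.82.

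FURIN, a protease that cleaves Nodal and activin precursors, rose by 1.62 ± 0.57 (adjusted p = 0.0314), from 3.04 and 4.10 TPM in pEF to between 5.95 and 29.7 TPM in pgEpiSC. After scaling its fold was 1.05 (adjusted p = 0.00547). The call as deposited was lost without pgEpiSC replicate 3 (adjusted p = 0.125) and without pEF replicate 1 or 2 (0.355 and 0.204). It was also lost with a pseudocount of 5 (0.0824), no filter (0.248), a filter of a mean of 5 TPM (0.0501) and rescaling to the same sum (0.0525), and the scaled call was lost without pEF replicate 2 (0.0577). The receptor gene ACVR1 was at 4.84 ± 2.80 TPM in pgEpiSC (SD, n = 4) and 4.74 ± 2.91 TPM in pEF (SD, n = 2) and was not called, at -0.01 ± 0.58 as deposited and -0.55 ± 0.21 after scaling (adjusted p = 0.0518). On scaled values ACVR1 was called lower without pgEpiSC replicate 3 (-0.65, adjusted p = 0.0347) and without pEF replicate 1 (-0.82, adjusted p = 0.0387). ACVR1C, or ALK7, an alternative type I receptor for Nodal, did not exceed 0.13 TPM in any library.

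The shared transducers and most inhibitors of signalling were not called as deposited. Of 5 transducers 0 were called by limma (0 also at an unadjusted p below 0.05), where 18.0% of all tested genes were called higher and 9.43% lower. After scaling 1 was higher (TRIM33) and 1 lower (DRAP1), where 27.0% and 30.9% of all tested genes were. SMAD4, the common partner of the receptor SMADs, was at 15.9 ± 8.72 TPM in pgEpiSC and 13.7 ± 5.05 TPM in pEF, with a fold of 0.10 ± 0.53 as deposited that turned to -0.51 ± 0.20 after scaling, neither called. Of 9 inhibitors 1 rose as deposited: TGIF2, a homeodomain corepressor of SMADs, at 1.90 ± 0.59 (limma, adjusted p = 0.0133). TGIF2 was no longer called when pEF replicate 1 or 2 was left out (folds of 1.60 and 2.20). The call was also lost with a pseudocount of 5 (adjusted p = 0.0693) or with no filter (0.162). After scaling TGIF2 was called as well, with a fold of 1.47 (limma, adjusted p = 0.000699). SMAD7, the inhibitory SMAD induced by the pathway, had a fold of 0.51 ± 0.57 and was not called (adjusted p = 0.522; 0.05 ± 0.17 after scaling). After scaling 6 of the 9 inhibitors were called lower: the ubiquitin ligases SMURF1 and SMURF2, the corepressors SKI and SKIL, PMEPA1 and the phosphatase PPM1A, with folds between -1.66 and -0.61, where 30.9% of all tested genes were called lower.

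**Figure D5:**
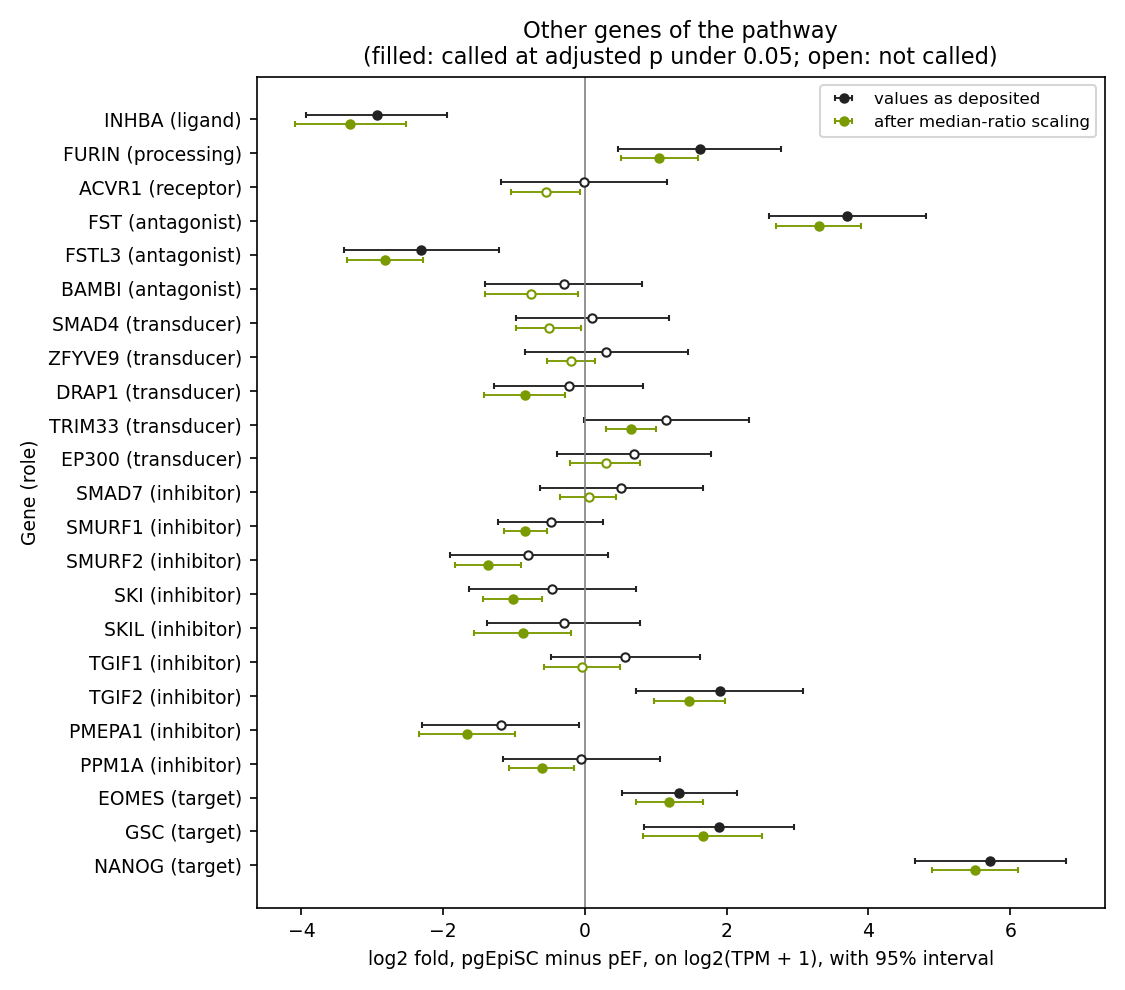
Log2 fold, pgEpiSC minus pEF, on log2(TPM + 1) with 95% intervals from limma, for the 23 tested genes of the rest of the pathway, as deposited (black) and after median-ratio scaling (green); filled points were called. FST and NANOG lie far to the right and INHBA and FSTL3 to the left on both scales, while the inhibitors from SMURF1 to PPM1A other than TGIF1 and TGIF2 are called lower only after scaling.

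Genes known as targets of the pathway in epiblast and primitive streak were few at appreciable levels. Of 6, all in the table, 3 passed the filter, each through pgEpiSC alone, and these 3 rose. Among all tested genes 18.0% were called higher, and passing through pgEpiSC alone favoured that direction, so nothing is read from this count. NANOG, a pluripotency factor, had a fold of 5.72 ± 0.53. GSC and EOMES, transcription factors of the anterior streak and endoderm, were at 4.16, 5.76, 2.26 and 2.77 TPM and at 1.57, 2.53, 1.60 and 0.774 TPM in pgEpiSC, with folds of 1.89 ± 0.53 (adjusted p = 0.00609) and 1.33 ± 0.40 (adjusted p = 0.0112). Both of these calls were lost with a single pEF library left, at adjusted p = 0.182 and 0.148 when replicate 1 was left out and 0.153 and 0.143 when replicate 2 was. EOMES was also not called with a pseudocount of 5 (adjusted p = 0.0558) or with no filter (0.0876). After scaling GSC and EOMES were called as well, with folds of 1.66 and 1.19 (limma, adjusted p = 0.00506 and 0.00149). MIXL1, LHX1 and FGF8 stayed under 1 TPM in every library.

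The profiles nearest to those of 3 of the secreted factors were found by Euclidean distance on log2(TPM + 1) over the 6 libraries, as deposited. Only tested genes with a symbol were searched, and the 10 members were left out. For NODAL these were NELL2, JAKMIP2 and PREX2 (distances 0.47, 0.59 and 0.61), each with a mean between 4.58 and 4.91 TPM in pgEpiSC. For CER1 they were TC2N, CCK and GPM6A (0.79, 0.86 and 0.91). For LEFTY2 the nearest of the genes searched lay further off, with APOE, DNMT3B and LIN28A at 1.57, 2.00 and 2.84. The distance reads level and group together, and the libraries' common scale enters each profile.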

How the data were processed

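Strand-specific libraries of rRNA-depleted total RNA were sequenced as 150-bp pairs, with an average of 127.83 M raw reads, per the labels' protocols. The submitters' processing notes list kallisto 0.44.0 and STAR 2.6.0c without a role; the build is not given in the sources used here, nor is the annotation. For 20132 Ensembl genes the authors deposited TPM, with no counts; 14062 genes (69.8%) had a symbol in the gene name table. The 2 rows sharing a symbol were summed.

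Genes with at least 1 TPM in at least 2 libraries (10424) were fitted on log2(TPM + 1) by group, using limma 3.58.1 under R 4.3.3 and a trended empirical Bayes variance. Calls needed an adjusted p (Benjamini-Hochberg) below 0.05. The fit was tried on data simulated from scaled values with independent noise, which does not cover the values as deposited. Median-ratio factors, ratios and exact permutation tests were computed with Python 3.11.15, pandas 2.3.3 and numpy 2.4.6, and figures with matplotlib 3.10.9.

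Members, lists and alternatives were chosen with earlier results of these data known. Named were the 10 members, pathway genes called as deposited, and the 3 nearest profiles of LEFTY2, NODAL and CER1. Also named, where found, were 9 pathway genes of ligand, antagonist, receptor or SMAD function, of which INHBA and FST were also called. Others named were chosen after their values were seen. A gene of the pathway list is not reported here and was left out of the list's counts and medians; it stayed among the tested genes. Alternatives changed the pseudocount, filter, scaling, variance model, replicate block and libraries.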

Additional observations from a re-analysis of the deposited data

How the results depend on the processing

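The count of members called higher (6) was 3 with no filter, where GDF3, ACVR2B and FOXH1 were not called, 2 when the mean had to reach 5 TPM, which leaves fewer genes to test, and between 3 and 6 with a library left out. The count called lower (0) was 2 after quantile normalization, rescaling to 1000000, and median-ratio scaling with or without the block, and between 0 and 2 with a library left out. For the other pathway genes, those higher (6) numbered 3 with a pseudocount of 5, no filter or the stricter filter, and between 2 and 7 with a library left out. Those lower (2) numbered 1 with no filter, 0 with the stricter filter, 9 after median-ratio scaling or rescaling, 8 after quantile normalization and 7 after scaling with the block, and between 1 and 10 with a library left out. Over all tested genes, 1874 were higher and 983 lower as deposited, and 2812 and 3222 after scaling. Why scaling moved these counts was not tested.

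Of the single genes, those that turned sign were not called as deposited. SMAD2 (0.37) was -0.20 after median-ratio scaling, -0.38 after rescaling, -0.25 after scaling with the block, and between -0.32 and 0.78 with a library left out (-0.03 without pEF replicate 1; on scaled values -0.32, -0.05, -0.17 and -0.27 without pgEpiSC replicates 1 to 4, and -0.29 and -0.11 without pEF replicates 1 and 2). SMAD4 (0.10) was -0.51, -0.70 and -0.43 under the same settings, -0.33 after quantile normalization, and between -0.55 and 0.46 with a library left out (-0.20 without pgEpiSC replicate 2 and -0.25 without pEF replicate 1; on scaled values -0.55, -0.52, -0.45 and -0.52 without pgEpiSC replicates 1 to 4, and -0.53 and -0.49 without pEF replicates 1 and 2). ACVR1B was -0.08 and SMAD7 -0.09 after rescaling, and with a library left out they lay between -0.07 and 0.56 and between -0.05 and 0.82 (on scaled values -0.07 and -0.04 without pgEpiSC replicate 2, and -0.01 and -0.05 without pEF replicate 1). ACVR1 was 0.00 with a pseudocount of 5 and between -0.82 and 0.53 with a library left out (0.23 and 0.17 without pgEpiSC replicates 1 and 4, and 0.53 without pEF replicate 2). The log2 ratios kept their sign, at -1.22 (SMAD3 to SMAD2) and -3.06 (ACVR2A to ACVR2B) for ratios of TPM + 1.

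The replicate numbers are not said to pair libraries, and only numbers 1 and 2 occur in both groups. Deviations of same-numbered libraries correlated at 0.098 and 0.172 as deposited. Those of differently numbered libraries correlated at between -0.172 and 0.142. With 2 pEF libraries their deviations mirror each other, so each value recurs with the opposite sign and no pairing can be read from these. With a replicate block 6 members were higher and 0 lower, and 6 and 2 other pathway genes, as without it. The block leaves the group difference to rest on replicates 1 and 2 of each group. These equal counts are therefore little check on the main fit.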
